A study of Mus musculus with 20 samples.

Results

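Replication-dependent histone genes make the 5 classes of histone that package new DNA: the core histones H2A, H2B, H3 and H4, which form the nucleosome, and the linker histone H1, which binds the DNA between nucleosomes. They were taken as the mouse genes named Hist1h, Hist2h, Hist3h or Hist4h, a rule that used no change over time. Of 70 such genes, 3 pseudogenes were left out, and 53 of the remaining 67 had at least 10 counts in at least 2 libraries. These 53 were 6 of 6 H1 genes, 12 of 18 H2A genes, 14 of 18 H2B genes, 10 of 12 H3 genes and 11 of 13 H4 genes, out of 16601 genes tested in all. The chromosome 13 cluster (Hist1) held 46 of them, the chromosome 3 cluster (Hist2) 5, and Hist3 on chromosome 11 and Hist4 on chromosome 6 held 1 each.

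RNA bound to chromatin, a fraction rich in transcripts still being made, was sequenced from B3 cells, a mouse cell line that resembles pre-B cells. All 20 libraries came from B3 cells transduced by retrovirus with Ikaros-ERt2, the B cell transcription factor IKZF1 fused to a receptor domain that lets it enter the nucleus when 4-hydroxytamoxifen (4-OHT) is added. The 0 h group had no treatment, and cells with 500 nM 4-OHT were taken at 30 min and at 1, 2, 6, 12, 15, 18, 21 and 24 h, with 2 libraries at each time point. No library without 4-OHT was taken after 0 h, so that IKZF1 entry, 4-OHT itself and time in culture cannot be told apart here. The labels do not say that replicates were separate cultures, so p-values measure only the spread between these libraries, which may be technical. Ikzf1 averaged 4842 CPM at 0 h and 8804 CPM at 24 h, where CPM is the count of a gene scaled to a common library size,, and the endogenous gene and the construct cannot be told apart in it.

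Replication-dependent histone mRNAs differ from other mRNAs in that they have no introns and no poly(A) tail. Their 3′ end is a short stem-loop, bound by SLBP and cut with the help of the U7 small nuclear RNA. Transcription is concentrated in the histone locus body, a nuclear structure built on NPAT at the gene clusters, which cyclin E and CDK2 activate as cells enter S phase. The mRNAs are made in quantity while DNA is copied and are degraded when copying stops. In pre-B cells, IKZF1 is known for moving large dividing cells towards small resting ones.

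The stem-loop was looked for after the stop codon of each member in the annotated transcript, as a stem of 6 base pairs around a loop of 4 bases. It was found in 38 of 53 members, from 21 to 54 bases after the stop codon, against 775 of 22527 annotated coding genes (3.44%) searched the same way. Of the 15 members without it, 13 had annotated transcripts ending at most 48 bases after the stop codon, so that the place where it would lie was not annotated. The other 2, Hist1h2bc and Hist2h2be, had long annotated ends of 742 and 2192 bases and no match in these letters. The sequences below (GRCm38) show the element that defines the family in 6 genes whose time courses are given in detail further on. Capitals mark the stem and loop.
Hist1h1c (chr13:23739507-23739532, plus strand): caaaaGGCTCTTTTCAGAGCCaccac
Hist1h2ag (chr13:22042478-22042503, minus strand): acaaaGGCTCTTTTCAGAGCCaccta
Hist1h3c (chr13:23745042-23745067, minus strand): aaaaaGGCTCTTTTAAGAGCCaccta
Hist1h3g (chr13:23535884-23535909, plus strand): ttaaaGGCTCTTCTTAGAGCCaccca
Hist1h4c (chr13:23698084-23698109, minus strand): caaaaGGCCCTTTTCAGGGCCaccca
Hist2h2ac (chr3:96220413-96220438, minus strand): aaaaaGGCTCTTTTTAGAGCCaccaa
The form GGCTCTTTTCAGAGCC of Hist1h1c and Hist1h2ag was the commonest, in 20 members, although these 2 genes had opposite signs at 24 h. The form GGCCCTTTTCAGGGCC of Hist1h4c was in 6 members.

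RefSeq promoter sequences (GRCm38.p6, 250 bases before to 50 after the start) matched 48 of the 53 members, and Hist2h2be, Hist1h2bc, Hist2h4, Hist1h3a and Hist1h3f had no entry. The octamer ATTTGCAT, the letters bound by OCT1 and OCT2, was in 10 of 48 (20.8%) on either strand, against 1.74% of 32851 promoters in the table. All 10 were H2A or H2B genes, 5 of 12 and 5 of 12. CCAAT, the letters bound by NF-Y, was in 41 of 48 (85.4%) against 37.4% of all promoters. It was in every H1, H2A, H2B and H3 promoter matched and in 3 of 10 H4 promoters. Genes that start close together on opposite strands can hold the same match. Hist1h2ah and Hist1h2bk hold the same octamer, as do Hist1h2ae and Hist1h2bg. The 10 and the 41 are thus counts of genes and not of separate sites. TATAAA was in 64.6% against 13.6%, and GGGAA in 54.2% against 62.7% but in 10 of 10 H4 promoters. The motifs searched do not overlap one another, and a match is a description of letters only. The 250 bases before the start of 5 genes are shown because their genes had different log2 fold changes at 24 h against 0 h. The words high and low below refer to that fold change and not to the level in CPM. ATTTGCAT and CCAAT on either strand are in capitals.
Hist1h1c, high at 24 h (chr13:23738557-23738806, plus strand): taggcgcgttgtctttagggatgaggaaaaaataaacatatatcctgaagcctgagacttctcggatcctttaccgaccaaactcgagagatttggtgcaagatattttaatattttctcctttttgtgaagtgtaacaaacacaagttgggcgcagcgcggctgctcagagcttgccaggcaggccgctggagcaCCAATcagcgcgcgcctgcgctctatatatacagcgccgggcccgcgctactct
Hist2h2ac, between it and its high neighbour Hist2h2be (chr3:96220881-96221130, minus strand): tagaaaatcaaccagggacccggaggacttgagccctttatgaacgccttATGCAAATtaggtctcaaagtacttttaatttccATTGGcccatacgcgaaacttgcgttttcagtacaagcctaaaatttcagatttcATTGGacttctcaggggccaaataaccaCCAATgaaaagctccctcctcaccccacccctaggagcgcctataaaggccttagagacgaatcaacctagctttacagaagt
Hist1h4c, high at 24 h (chr13:23698459-23698708, minus strand): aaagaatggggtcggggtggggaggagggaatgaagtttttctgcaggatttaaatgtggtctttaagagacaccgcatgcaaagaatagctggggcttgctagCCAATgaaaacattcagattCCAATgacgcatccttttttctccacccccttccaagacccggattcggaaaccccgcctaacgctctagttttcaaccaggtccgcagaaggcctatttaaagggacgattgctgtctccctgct
Hist1h2bb, near its 0 h level at 24 h (chr13:23746484-23746733, plus strand): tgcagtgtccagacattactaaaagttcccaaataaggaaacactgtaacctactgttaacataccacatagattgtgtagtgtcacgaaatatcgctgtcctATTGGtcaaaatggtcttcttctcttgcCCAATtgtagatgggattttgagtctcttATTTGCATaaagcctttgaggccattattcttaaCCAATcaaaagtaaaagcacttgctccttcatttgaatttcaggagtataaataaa
Hist1h3g, low at 24 h (chr13:23535168-23535417, plus strand): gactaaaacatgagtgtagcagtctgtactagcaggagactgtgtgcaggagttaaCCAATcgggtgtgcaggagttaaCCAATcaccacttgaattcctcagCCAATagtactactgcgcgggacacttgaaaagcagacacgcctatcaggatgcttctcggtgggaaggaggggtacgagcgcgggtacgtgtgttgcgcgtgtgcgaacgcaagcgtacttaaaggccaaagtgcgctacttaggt

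Histone genes are near-copies of each other. The 53 members encode 24 different proteins, and 35 members share theirs with at least 1 other. All 11 H4 genes encode 1 protein of 103 residues, the 10 H3 genes encode 2 proteins of 136 residues, and the 6 H1 genes encode 6 proteins of 209 to 223 residues. A read from a shared stretch cannot be placed on 1 gene: the share of 50-base words found in no other annotated transcript on either strand was 6.0% in the lowest member, with a median of 53%, so that values of single genes are uncertain where it is low. The 30 members with at least 50% such words had median log2 fold changes of 1.14 at 18 h and 0.16 at 24 h, beside 1.01 and -0.02 in the other 23.

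The 53 genes together took from 0.0348% of counts (30 min replicate 2) to 0.106% (12 h replicate 1). Their summed level was 455 and 442 CPM (0 h), 358 and 333 (30 min), 398 and 394 (1 h), and 452 and 453 (2 h). It was 638 and 623 CPM (6 h), 1017 and 820 (12 h), 820 and 855 (15 h), 865 and 1105 (18 h), 803 and 699 (21 h), and 577 and 539 (24 h). In CPM, both libraries at 30 min and at 1 h lay below both at 0 h, and both libraries at each time from 6 h on lay above both at 0 h. As a plain share of counts, the 24 h libraries held 0.0509% and 0.0469%, beside 0.0477% and 0.0461% at 0 h. The 24 h libraries thus overlapped those at 0 h by that measure, with a mean of 1.04 times the 0 h mean, beside 1.25 times in CPM. With 2 libraries against 2, an exact permutation test of a sum cannot give a p under 0.333, and none is given. Fewer cells of a type and less RNA per cell cannot be told apart in these bulk samples, nor can a change in the share of cells in S phase and a change per cell.

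**Figure D1:**
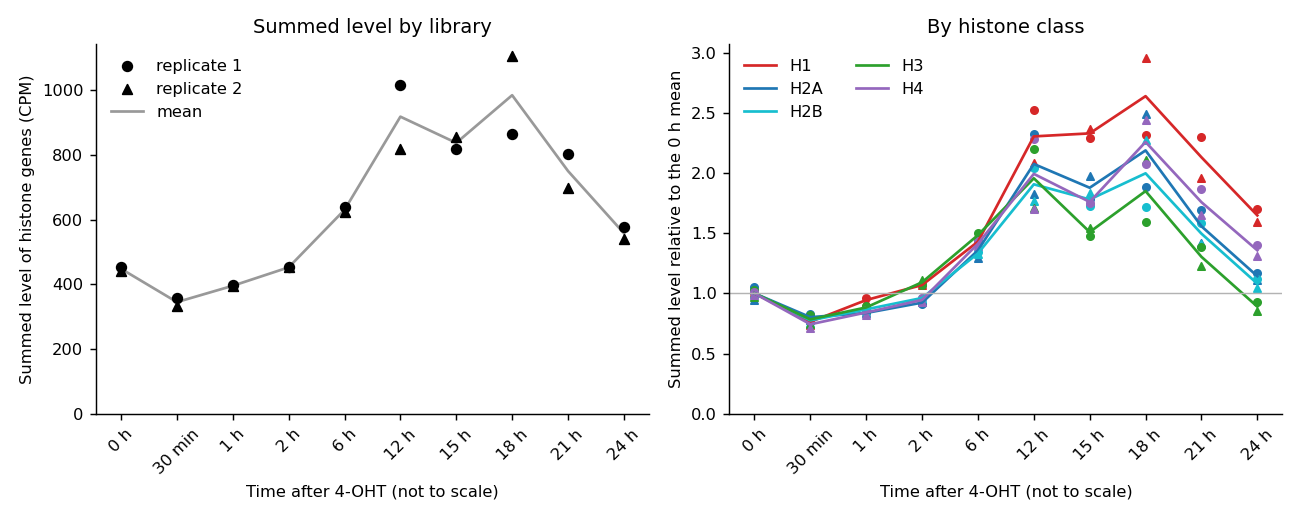
Left, the summed level of the 53 histone genes in CPM (y axis) at each time after 4-OHT (x axis, not to scale), with 1 point per library and a line through the means. Right, the sum of each class in CPM relative to its 0 h mean. All 5 classes lie below 1 at 30 min and above 1 at 12 and 18 h. In CPM, H3 alone is below 1 at 24 h, at 0.890, where H1 is at 1.65.

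In the plot of summed levels, the 5 classes moved in parallel early and apart late. At 30 min the class sums were 0.764 (H1), 0.802 (H2A), 0.776 (H2B), 0.784 (H3) and 0.743 (H4) of their 0 h means. At 12 h they were 2.30, 2.07, 1.91, 1.96 and 1.99 times the 0 h means in the same order, and at 18 h 2.64, 2.19, 2.00, 1.85 and 2.26 times. At 24 h they were 1.65, 1.14, 1.08, 0.890 and 1.36 times. These class sums are in CPM and were not taken as plain shares of counts. H1 genes made up 25.6% of the family's sum at 0 h and 33.9% at 24 h, and H3 genes 20.8% and 14.9%. The sums of a class rest mostly on its members with the most counts.

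At 30 min the fitted log2 fold change was below 0 in all 53 members, where 7759 of 16601 genes were below 0, with a median of -0.38 beside 0.01 over all genes. In 44 of 53 members both libraries at 30 min were below both at 0 h, as in 27.4% of all genes tested. No member passed both thresholds used throughout for a call, an adjusted p under 0.01 (edgeR quasi-likelihood test, Benjamini-Hochberg over all genes) and a fold above 2. Those thresholds called 0.410% of all genes down and 0.0542% up. Without the minimum of fold, 7 members fell, beside 4.76% of all genes, and 31 members were lower and 0 higher at an unadjusted p under 0.05, beside 12.5% and 13.3% of all genes. DESeq2 also called 0 members with the fold. The 7 genes were the H4 genes Hist1h4j, Hist1h4n and Hist1h4i, the linker histone Hist1h1d and the H2B genes Hist1h2be, Hist1h2bc and Hist2h2be, with log2 fold changes from -0.70 to -0.34. The count rested on single libraries: it was 0 without 30 min replicate 2, 4 without 30 min replicate 1, 2 without 0 h replicate 1 and 3 without 0 h replicate 2.

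At 1 h the log2 fold change was below 0 in 46 of 53 members, with a median of -0.24 beside 0.02 over all genes. At 2 h it was below 0 in 31 of 53, with a median of -0.03. No member passed with the fold above 2 at either time, where the thresholds called 4.87% of all genes down at 1 h, 2.34% higher at 1 h, 6.93% lower at 2 h and 6.27% higher at 2 h. DESeq2 called none either, and at an unadjusted p under 0.05, 14 members were lower at 1 h, beside 24.1% of all genes. At 2 h 4 members were lower and 3 higher by that rule, beside 30.0% and 31.0% of all genes. Without the minimum of fold, 3 members fell at 1 h, beside 17.2% of all genes, and the count was 1 without 0 h replicate 1, 0 h replicate 2 or 1 h replicate 2. The single one that fell at 2 h, beside 23.8% of all genes, was Hist1h2bc, an H2B gene. Hist1h2bc had 11.1 and 10.9 CPM (0 h), 7.04 and 6.95 (30 min), 6.54 and 7.84 (1 h), and 7.12 and 7.45 (2 h). All its libraries from 30 min to 2 h lay below both at 0 h. Its log2 fold change at 2 h was -0.59 ± 0.12 (SE, adjusted p = 0.000144, edgeR). It reached 12.8 and 17.8 CPM (18 h), a log2 fold change of 0.47, the smallest rise of all members at that time. It is 1 of 3 members whose annotation holds an intron, so that its 8710-base span, not an exon of usual histone length, gathered its reads. The next lowest at 2 h among members of at least 1 CPM, the H2B gene Hist1h2bp and the H4 gene Hist1h4a, had -0.44 and -0.42 and did not pass, and the highest, the H4 gene Hist2h4, the linker histone Hist1h1a and the H2B gene Hist1h2bl, had 0.45, 0.33 and 0.31 and did not pass either.

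At 6 h the family stood above 0 h, with a median of 0.53 and 50 of 53 members above 0. Without the minimum of fold 28 members rose, beside 30.1% of all genes, and 3 rose by more than 2-fold, beside 11.0%. None fell by either rule, where 9.14% of all genes were called down with the fold, DESeq2 called 0 down with the fold, and 1 member was lower at an unadjusted p under 0.05, beside 32.8% of all genes. The 3 were the testis linker histone gene Hist1h1t, the H3 gene Hist2h3c2 and Hist2h4, with log2 fold changes of 1.65, 1.11 and 1.14. Hist2h3c2 had 1.86 and 1.44 CPM (0 h), 3.57 and 3.56 (6 h), 3.97 and 4.19 (12 h), 2.03 and 2.35 (15 h), and 3.66 and 4.83 (18 h). Its libraries at 15 h lay between those at 0 h and those at 12 h and 18 h.

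The rise was widest at 12 h and 18 h. At 12 h 29 members rose by more than 2-fold (13.2% of all genes) and 49 by any fold (31.2%). At 15 h 14 members (15.3%) rose by more than 2-fold and 46 (33.1%) by any fold. At 18 h these counts were 34 (19.1%) and 53 (35.3%). Both hold the H2B gene Hist3h2ba, which met the count minimum only with libraries from 12 h on. At 21 h the counts were 11 (20.1%) and 32 (35.7%). No member fell with or without the fold at these 4 times, where 9.93%, 13.1%, 17.6% and 19.4% of all genes were called down in that order. DESeq2 called none down either, and none was lower at an unadjusted p under 0.05, beside 34.8% to 40.1% of all genes. Both libraries lay above both at 0 h in 51 of 53 members at 12 h (42.4% of all genes) and in 53 of 53 at 18 h (43.5%). Each member had its highest group mean at 1 of these 2 times, 19 at 12 h and 34 at 18 h. The higher summed levels at these times came from 1 library each. The sums of 12 h replicate 2 and 18 h replicate 1 were 820 and 865 CPM, beside 820 and 855 at 15 h. The counts with the fold rested on 1 library at each of these times: 16 rose at 12 h without replicate 1 and 15 (18 h) without replicate 2, the libraries with the higher sums. By any fold they were 46 and 46 without those libraries. Without 21 h replicate 1, 20 members rose by any fold at 21 h. The fit used 1 estimate of spread per gene from all 20 libraries. Replicates differed most at 12 h and 18 h, so that SEs and p-values at these times may be too small.

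**Figure D2:**
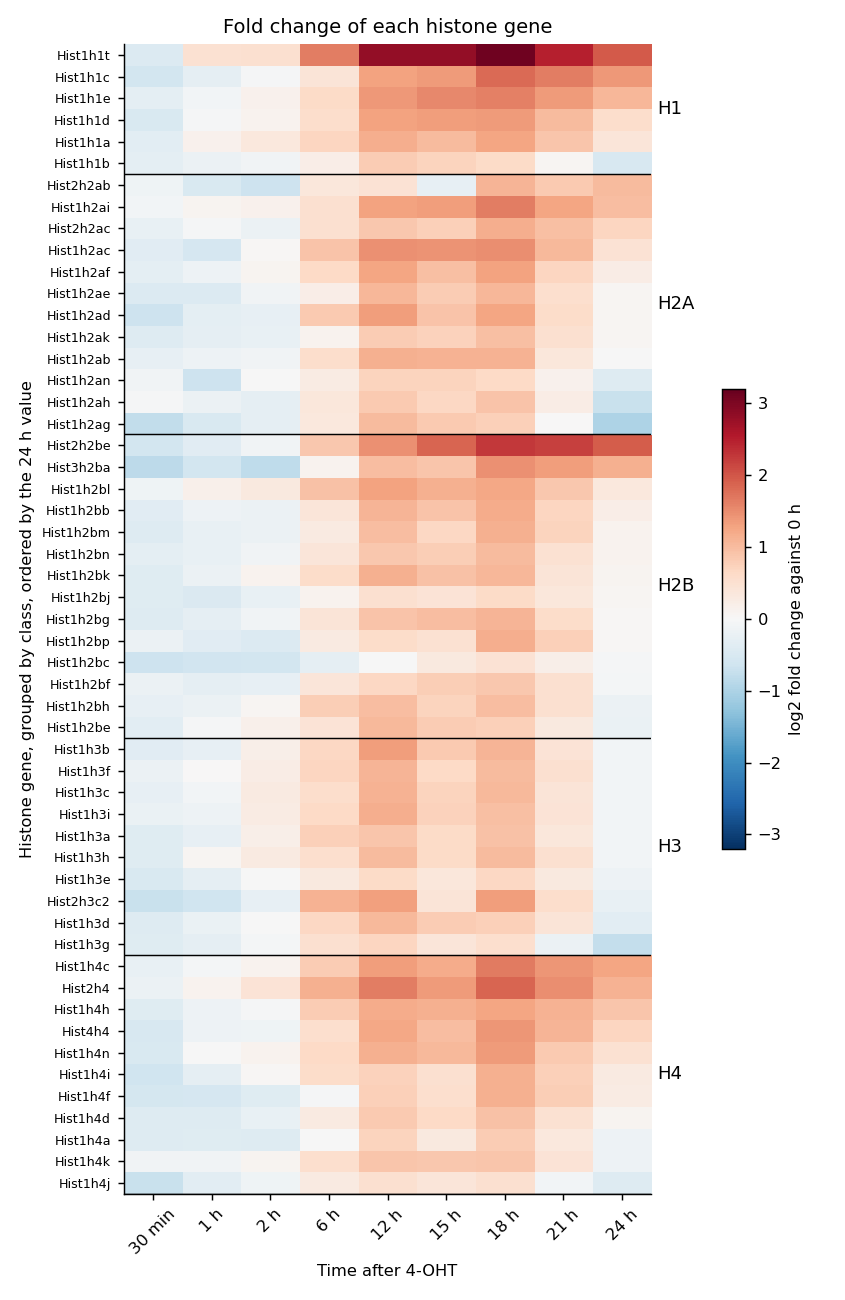
Log2 fold change against 0 h of each of the 53 histone genes (rows, by class and then by the value at 24 h) at each time after 4-OHT (columns), with blue below 0 and red above. Every gene is below 0 at 30 min and above 0 at 18 h, and at 24 h the 10 H3 genes lie between -0.75 and -0.08 while 5 of 6 H1 genes lie above 0.

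Of the linker histone genes, 5 of 6 rose by more than 2-fold at 12 h and 5 at 18 h, with a median of 1.49 at 18 h. Hist1h1c (chr13:23738808-23740367, a gene of 1 exon) had 22.1 and 22.1 CPM (0 h), 14.4 and 15.0 (30 min), 18.2 and 18.2 (1 h), 21.3 and 22.1 (2 h), and 29.3 and 30.0 (6 h). It then had 61.2 and 46.5 CPM (12 h), 55.4 and 57.3 (15 h), 67.2 and 89.5 (18 h), 74.1 and 64.1 (21 h), and 59.4 and 56.2 (24 h). From 12 h on every library was more than 2 times the 0 h level, and the 24 h libraries lay within the range of those at 12 h. Its log2 fold change was -0.59 ± 0.15 at 30 min (adjusted p = 0.0167, not passed), 1.82 ± 0.13 at 18 h (adjusted p = 7.07e-09) and 1.39 ± 0.13 at 24 h (adjusted p = 2.09e-07, edgeR). Hist1h1e, another linker histone gene expressed in most dividing cells, had 25.1 and 26.1 CPM (0 h), 72.6 and 62.1 (12 h), 68.3 and 89.3 (18 h), and 55.1 and 52.3 (24 h). Its 24 h libraries were above both at 0 h, and its log2 fold change at 24 h was 1.07 ± 0.12. Hist1h1b, by contrast, had 24.0 and 23.1 CPM (0 h), 44.9 and 37.6 (12 h), and 16.6 and 16.4 (24 h). It was the 1 linker histone gene below its 0 h level at 24 h, with a log2 fold change of -0.51 ± 0.10 (adjusted p = 0.000159). Hist1h1a and Hist1h1d lay between, with 0.40 and 0.57 (24 h).

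Hist1h1t, whose protein is known from spermatocytes, had 0.151 and 0.248 CPM (0 h), 0.584 and 0.668 (6 h), 1.09 and 1.72 (12 h), 1.58 and 1.94 (18 h), and 0.954 and 0.624 (24 h). All libraries from 6 h on were above both at 0 h, and the log2 fold change at 18 h, 3.12 ± 0.30, was the largest in the family, at a level near the lowest in it. Its stem-loop was found, and it lies at chr13:23695814-23696725, next to Hist1h4c. Of 4 testis marker genes, Tnp1 was at 0 counts but wholly covered by other annotated genes, Prm1 and Prm2 had 10 and 28 counts in all libraries together, and Ddx4, at a mean of 0.352 CPM, had a log2 fold change of 2.02 at 24 h. The part of the testis markers in the value of Hist1h1t was not tested. Hist3h2ba, an H2B gene outside the large clusters, averaged 0.237 CPM and did not pass at 24 h (log2 fold change 1.13 ± 0.46, adjusted p = 0.0305). At 18 h its log2 fold change was 1.47 ± 0.42. It had 10 and 4 counts at 0 h and 15 and 21 at 18 h. Before 12 h only 0 h replicate 1 reached 10 counts. Hist3h2ba thus met the count minimum only with late libraries, where it was high, and its call at 18 h is no support for a rise.

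Among the H2A genes, 7 of 12 rose by more than 2-fold at 12 h and 8 at 18 h, with a median of 1.09 at 18 h. Hist1h2ak had 8.81 and 7.34 CPM (0 h), 15.8 and 12.9 (12 h), 13.4 and 18.2 (18 h), and 8.62 and 8.20 (24 h). Hist1h2ab had 5.55 and 4.59 CPM (0 h), 13.1 and 9.57 (12 h), 9.93 and 11.9 (18 h), and 5.31 and 4.72 (24 h). In both genes the 12 h and 18 h libraries were above and the 24 h libraries overlapped those at 0 h, with log2 fold changes at 24 h of 0.06 ± 0.14 and -0.02 ± 0.15. Annotated antisense genes overlap all 12 H2A members, and whether counting used the strand is not given in the sources used here. The median at 18 h was 1.09 in members that overlap another annotated gene and 1.09 in those that do not.

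Hist1h2ag (chr13:22042460-22042944) was the H2A gene lowest at 24 h relative to 0 h. It had 1.25 and 0.901 CPM (0 h), 0.731 and 0.535 (30 min), 2.30 and 2.07 (12 h), 1.58 and 2.14 (18 h), 1.12 and 1.06 (21 h), and 0.596 and 0.489 (24 h). The 24 h libraries lay below those at 0, 12, 18 and 21 h, but 30 min replicate 2 lay between them. Its log2 fold change was 1.01 ± 0.22 at 12 h and -0.996 ± 0.31 at 24 h (adjusted p = 0.00508), and -2.01 ± 0.27 from 12 h to 24 h (adjusted p = 7.83e-07). The 24 h call of Hist1h2ag and that of Hist1h2ah (-0.71 ± 0.21, adjusted p = 0.00387) were lost in DESeq2 and without 0 h replicate 1, 24 h replicate 1 or 24 h replicate 2.

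Of the H2B genes, 5 of 14 rose by more than 2-fold at 12 h and 9 at 18 h. Hist1h2bb had 12.2 and 11.5 CPM (0 h), 28.6 and 21.9 (12 h), 22.5 and 31.7 (18 h), and 14.2 and 13.1 (24 h), a rise and return with a log2 fold change of 1.19 ± 0.14 at 18 h and 0.20 ± 0.15 at 24 h. Hist1h2bg moved alike, from 15.5 and 15.4 CPM (0 h) to 26.8 and 39.3 (18 h) and 16.6 and 15.4 (24 h). Hist1h2be had 32.2 and 32.4 CPM (0 h), 66.8 and 65.2 (12 h), 49.7 and 59.8 (18 h), and 28.7 and 27.2 (24 h). Its annotation spans 37455 bases with introns and overlaps Hist1h1e on the same strand, so that its counts are not those of a single histone exon.

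Hist2h2be (chr3:96221119-96223738) had the largest log2 fold change of the 14 H2B genes at 18 h and at 24 h. It had 3.39 and 3.27 CPM (0 h), 2.27 and 2.16 (30 min), 2.50 and 2.65 (1 h), 2.98 and 3.19 (2 h), and 6.09 and 6.06 (6 h). It went on to 8.77 and 9.62 CPM (12 h), 12.9 and 11.4 (15 h), 15.4 and 16.4 (18 h), 16 and 14.6 (21 h), and 14.0 and 11.8 (24 h). Both libraries at 24 h lay above both at 12 h, and it was the 1 member that rose from 12 h to 24 h, by 0.48 ± 0.09 on the log2 scale (adjusted p = 7.18e-05, edgeR). Against 0 h its log2 fold change was 2.25 ± 0.10 at 18 h and 1.95 ± 0.10 at 24 h (adjusted p = 1.77e-14). Its known mRNA can end with a poly(A) tail as well as at a stem-loop, and the annotated end of 2192 bases after the stop codon is the long form.

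Of the H3 genes, 7 of 10 rose by more than 2-fold at 12 h and 5 at 18 h, with a median of 0.98 at 18 h. Hist1h3c had 14.8 and 14.6 CPM (0 h), 12.5 and 11.9 (30 min), 37.8 and 26.1 (12 h), 22.4 and 25.8 (15 h), 25.4 and 34.8 (18 h), 20.9 and 18.4 (21 h), and 14.8 and 12.7 (24 h). All libraries from 12 h to 21 h were above both at 0 h, and those at 24 h overlapped them. Hist1h3e had 25.3 and 23.5 CPM (0 h), 42.2 and 32.8 (12 h), and 21.7 and 21.6 (24 h), and Hist1h3f had 13.5 and 13.4, 31.8 and 25.9, and 13.7 and 11.8 CPM at the same times. Hist1h3g (chr13:23535422-23535951) had 6.87 and 5.63 CPM (0 h), 10.4 and 9.80 (12 h), and 3.64 and 3.77 (24 h). Both its 24 h libraries lay below both at 0 h, and it was the 1 H3 gene that fell, with a log2 fold change of -0.75 ± 0.14 (adjusted p = 2.46e-05).

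The 11 H4 genes encode the same protein, yet their RNA levels took different courses. At 18 h 7 of 11 rose by more than 2-fold, and 5 at 12 h. Hist1h4d had 17.1 and 16.7 CPM (0 h), 34.6 and 26.1 (12 h), 30.0 and 34.8 (18 h), and 17.8 and 17.9 (24 h). It was back within 0.08 ± 0.11 of the 0 h level on the log2 scale. Hist1h4c (chr13:23697635-23698454) had 5.94 and 5.38 CPM (0 h), 16.9 and 12.0 (12 h), 17.2 and 18.9 (18 h), and 13.7 and 13.5 (24 h). Its 24 h libraries lay far above both at 0 h, with a log2 fold change of 1.26 ± 0.13 (adjusted p = 3.19e-08). Hist2h4 had 3.63 and 3.51 CPM (0 h), 13.7 and 8.87 (12 h), 11.0 and 15.0 (18 h), and 7.54 and 7.82 (24 h). Hist1h4h had 11.3 and 11.9 CPM (0 h) and 21.7 and 21.4 (24 h), above 0 h in both libraries. Hist1h4i had 9.31 and 9.07 CPM (0 h), 18.1 and 22.3 (18 h), and 12.1 and 10.3 (24 h). At the other end, Hist1h4j fell by 0.41 on the log2 scale at 24 h, so that the 24 h values of these 11 genes ran from -0.41 to 1.26.

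At 24 h the median of the family was 0.065, with 31 members above and 22 below 0. By more than 2-fold 6 members rose, beside 20% of all genes, and none fell, beside 20.1%. Without the minimum of fold 13 rose and 5 fell, beside 35.4% and 36.1%, a smaller share of the family than of all genes in each direction. DESeq2 called 0 down with the fold, and at an unadjusted p under 0.05 17 members were higher and 7 lower, beside 39.2% and 39.9% of all genes. The 6 were Hist2h2be, Hist1h1t, Hist1h1c, Hist1h4c, Hist2h4 and Hist1h1e. The 5 that fell were Hist1h2ag, Hist1h3g, Hist1h2ah, Hist1h1b and Hist1h4j. This count was 2 without 0 h replicate 1, 24 h replicate 1 or 24 h replicate 2, and 1 member, Hist1h2ag, passed with the fold without 0 h replicate 2. The class medians were 0.82 for H1, 0.07 for H2A, 0.08 for H2B, -0.10 for H3 and 0.28 for H4, and all 10 H3 genes were below 0. When libraries were scaled by their totals alone, the median of all genes was -0.27 at 24 h and that of the family -0.19, so that the family stood 0.08 above all genes with either scaling, while its own sign flipped.

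**Figure D3:**
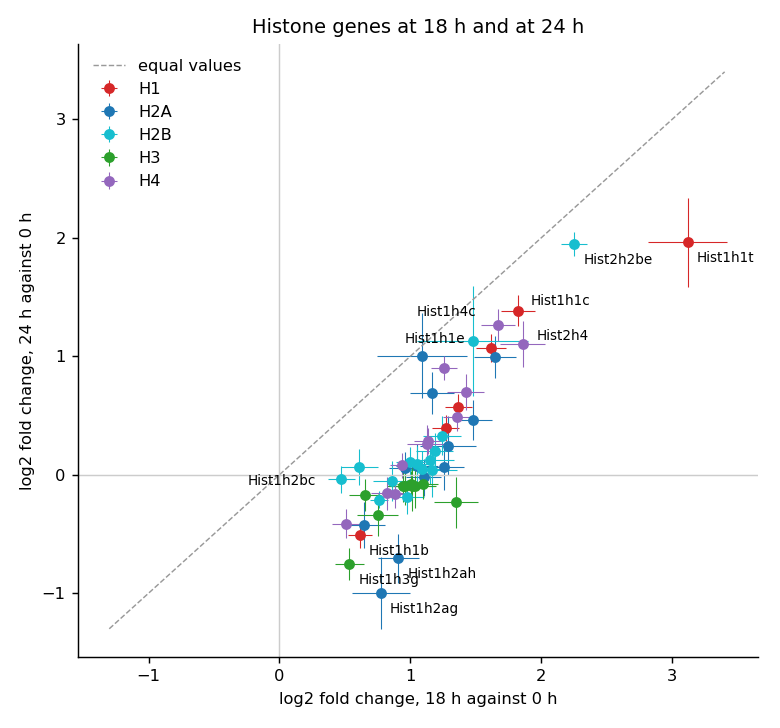
Log2 fold change against 0 h of each histone gene at 18 h (x axis) and at 24 h (y axis), coloured by class, with bars of 1 SE. All 53 points lie below the dashed line of equal values and right of 0, and at 24 h they spread from -0.996 (Hist1h2ag) to 1.96 (Hist1h1t). Both axes share the 0 h libraries.

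From 12 h to 24 h, a comparison that leaves out the 0 h libraries, 19 members fell by more than 2-fold, beside 9.06% of all genes, and 41 by any fold, beside 25.1%. None rose by more than 2-fold, beside 6.40%, and 1, Hist2h2be, rose by any fold, beside 25.1%. At an unadjusted p under 0.05 45 members were lower and 1 higher, beside 31.6% and 30.9% of all genes, and DESeq2 called 0 up by more than 2-fold. Both libraries at 24 h lay below both at 12 h in 46 of 53 members, as in 39.1% of all genes. The 19 were 8 of 10 H3 genes, 6 of 12 H2A, 3 of 14 H2B, 1 of 6 H1 and 1 of 11 H4, and the class medians were -1.24 for H3, -1.0 for H2A, -0.81 for H2B, -0.73 for H1 and -0.54 for H4. Hist1h1c, Hist1h4c and Hist2h2ac did not pass here, with 0.10 ± 0.13, -0.08 ± 0.12 and -0.17 ± 0.17. The count was between 13 and 28 with 1 library left out, and it was 34 when libraries were scaled by their totals alone.

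Over the whole time course 38 of 53 members changed (F test over all time points with a fold above 2 at any of them), beside 51.9% of all genes tested.

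Genes that sit head to head did not always have like fold changes. Of the members, 10 pairs start within 1000 bases of each other on opposite strands, 9 of them an H2A with an H2B gene and 1 Hist1h2bh with the H3 gene Hist1h3f. Hist2h2ac and Hist2h2be start 239 bases apart, around the octamer shown above. Hist2h2ac had 4.71 and 5.09 CPM (0 h), 9.61 and 12.5 (18 h), and 8.26 and 7.57 (24 h), above 0 h in all 4 later libraries. Its log2 fold changes were 1.17 at 18 h and 0.69 at 24 h, beside 2.25 and 1.95 for Hist2h2be. Hist1h2ag and Hist1h2bj, 270 bases apart, were at -0.996 and 0.06 (24 h), and Hist1h2ah and Hist1h2bk, 302 bases apart, at -0.71 and 0.09. Hist1h2ac and Hist1h2bc, 251 bases apart, were at 1.48 and 0.47 (18 h). Other pairs were closer, such as Hist1h2ae and Hist1h2bg, 176 bases apart, at 0.07 and 0.05 (24 h). The differences within pairs were not tested.

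Members also differed in the length of their annotated 3′ ends. With at least 150 bases after the stop codon, a limit chosen after the values were seen, 23 members had a 24 h median of 0.08, and the other 30 had 0.06. From 12 h to 24 h the medians were -0.79 and -0.98. The 5 genes of the chromosome 3 cluster ran from -0.23 (Hist2h3c2) to 1.95 (Hist2h2be) at 24 h, and their middle value is that of Hist2h2ab, which had 17 and 19 counts at 24 h and did not pass. The 46 of the chromosome 13 cluster had a median of 0.05. Levels between members were compared per length: they were highest in Hist1h1a (51.2 mean CPM per kb of exon), Hist1h4h (40.1) and Hist1h1b (36.3) and lowest in Hist3h2ba (0.385).

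In a list of 36 genes that make and process histone mRNA, chosen with earlier results of these data known, 35 were tested. At 12 h 1 fell by more than 2-fold and none rose. At 18 h and at 24 h 9 fell and 1 rose, beside 17.6% and 20.1% of all genes down, and the medians at the 3 times were -0.12, -0.53 and -0.69. Without the minimum of fold 24 fell and 6 rose at 24 h, beside 36.1% and 35.4% of all genes. The 6 included Nfyc, a subunit of the CCAAT-binding factor NF-Y, at a log2 fold change of 0.48 and Tut7 at 0.89. Slbp, the stem-loop binding protein, averaged 64.3 ± 1.6 CPM (SD, n = 2) at 0 h and 39.7 ± 0.99 at 24 h (log2 fold change -0.69), and Npat, the scaffold of the histone locus body, 127 ± 2.4 and 83.1 ± 0.53 (-0.61). Lsm11, a part of the U7 particle, went from 24.5 ± 0.77 to 4.30 ± 0.41 CPM (-2.51), and Ccne1, cyclin E, from 17.8 ± 0.037 to 1.09 ± 0.19 (-4.02). Tut4, which adds uridines to histone mRNA as it is degraded, was the 1 that rose by more than 2-fold, from 437 ± 7.4 to 1155 ± 34 CPM (1.40). The U7 gene Rnu7 was listed at 0 in every library and is wholly covered by other annotated genes, so that its 0 is no measure of its level.

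**Figure D4:**
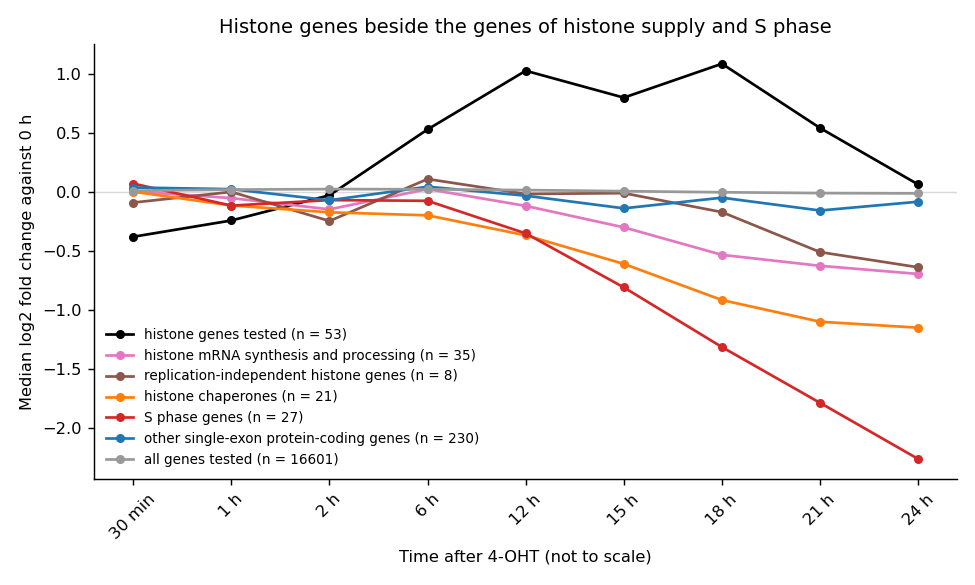
Median log2 fold change against 0 h (y axis) of the histone genes, of 5 other groups and of all genes tested at each time after 4-OHT (x axis, not to scale). The number of genes tested is given as n. The histone line is the highest of all from 6 h to 24 h, with 1.09 at 18 h, where the S phase list is at -1.31.

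Of 30 genes of DNA replication or of steps linked to it, the S phase list, 27 were tested, and 2 had fallen by more than 2-fold at 12 h. This list shares Slbp with the list of histone mRNA genes and Mcm2 with the histone chaperones below. At 18 h 21 had fallen and at 24 h 24, and the medians at these 3 times were -0.35, -1.31 and -2.26. None rose by more than 2-fold at these times, and of all genes 9.93%, 17.6% and 20.1% were down. Pcna, the sliding clamp of DNA polymerase, averaged 66.8 ± 1.2 CPM at 0 h, 65.0 ± 15 at 12 h, 37.2 ± 6.9 at 18 h and 16 ± 0.34 at 24 h. Histone genes were at their highest at 12 h and 18 h, where Pcna was at and then below its 0 h level. Pcna, at a log2 fold change of -0.04 at 12 h, does not stand for the list. At 12 h 26 of the 27 genes were below 0, and 19 fell by any fold, beside 29.6% of all genes. Tyms, thymidylate synthase, had a log2 fold change of -2.39 at 12 h and -5.09 at 24 h, and Uhrf1, which reads newly copied DNA for methylation, -1.24 and -3.77.

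Of the histone chaperones, which carry histones to DNA, 12 of 21 fell by more than 2-fold at 24 h, beside 20.1% of all genes, and none rose by more than 2-fold, with a median of -1.15. Without the minimum of fold 18 fell and 3 rose, beside 36.1% and 35.4% of all genes. The 3 were Nasp, Atrx and Daxx at log2 fold changes of 0.78, 0.47 and 0.35. Chaf1a, the large subunit of the CAF-1 chaperone, went from 110 ± 1.1 CPM at 0 h to 13.7 ± 0.53 at 24 h, and Mcm2, a helicase subunit that also binds histones, from 72.6 ± 0.098 to 8.76 ± 0.20 CPM. Of 12 replication-independent histone genes, 8 were tested, 1 fell by more than 2-fold at 24 h and none rose, with a median of -0.02 at 12 h and -0.64 at 24 h. The 1 that fell was H2afz, a variant placed at promoters, from 29.1 ± 0.31 to 13.5 ± 0.21 CPM. H3f3b, which codes for the H3 variant used outside S phase, had a log2 fold change of 0.95 at 24 h, under 2-fold. H2afx, whose mRNA can end either way, averaged 9.99 ± 0.074 CPM at 0 h, 15.6 ± 0.72 at 12 h and 5.45 ± 0.039 at 24 h. Other protein-coding genes of a single exon, which like the histone genes have no intron, had medians of -0.03 (12 h), -0.05 (18 h) and -0.08 (24 h). At 18 h 46 were down and 43 up by more than 2-fold among 230 tested, beside 17.6% and 19.1% of all genes.

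Other RNAs outside the usual poly(A) path also varied between libraries. Small nuclear RNA genes summed to 321 CPM in 12 h replicate 1 and 155 in replicate 2, and to 274 and 402 (18 h), so that at both times the library with more of them was the one with more histone RNA. They summed to 178 and 193 CPM (24 h), beside 180 and 219 (0 h). The small Cajal body RNAs were at 103 and 72.4 CPM (12 h). Mitochondrial rRNA rose from 1162 and 1220 CPM (0 h) to 10412 and 11089 (24 h), and Rn7sk from 808 and 792 to 2246 and 2308, highest late, when histone genes had come down. The part of these RNA classes in the histone values was not tested.

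**Figure D5:**
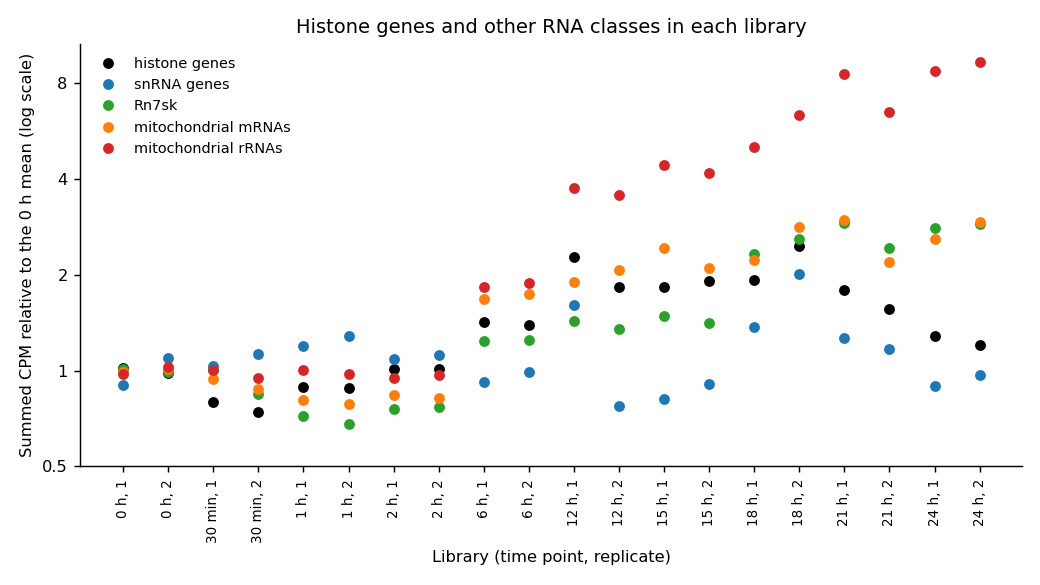
Summed CPM relative to the 0 h mean (log scale) of the histone genes and of 4 other RNA classes in each of the 20 libraries (x axis, time point and replicate). Small nuclear RNA genes are at 321 and 155 CPM in the 12 h replicates, where the histone sums are 1017 and 820 CPM. In the 24 h replicates they are at 178 and 193 CPM, where the histone sums are 577 and 539 CPM. Mitochondrial rRNA is highest at 24 h.

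Total counts ran from 33296158 to 46868954 per library, with a median of 40943260. The replicates differed most at 12 h and 18 h, with a chi-square per degree of freedom over genes of 12.1 and 18.5, beside 1.31 to 5.6 at the other times. The SEs and p-values at 12 h and 18 h come from a spread shared over all time points and may be too small. Of 10 pre-B cell marker genes, 9 were tested, with Ebf1 at 9411 and Pax5 at 2020 mean CPM and Rag1 at 0, which other annotated genes cover over its whole length. The T cell, myeloid and erythroid lists had 1 of 4, 1 of 5 and 0 of 4 genes tested, and the 2 tested genes, Cd8a and Csf1r, were under 1 mean CPM.

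The 14 histone genes that did not reach the count minimum were of 3 kinds. For 7 of them (Hist3h2a, Hist1h4b, Hist2h2aa1, Hist2h2aa2, Hist2h3c1, Hist2h3b and Hist2h2bb) every library had 0 counts, and other annotated genes cover each over its whole length. Among protein-coding genes in general, 91.8% of 1341 so covered had 0 counts, against 18.5% of 11694 covered by none, so that 0 counts here are not a measure of silence. A further 5 (Hist1h2bq, Hist1h2ao, Hist1h4m, Hist1h2ap and Hist1h2br) had 3 to 43 counts in all libraries together, and 2.7% to 11.3% of their 50-base words were unique. The last were the testis genes Hist1h2ba and Hist1h2aa with 3 and 1 counts. Just inside the minimum, Hist3h2ba had 184 counts with 10 libraries at 10 or more, and just outside it Hist1h2ap had 43 with 1.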

How the data were processed

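B3 cells with the IKZF1-ERt2 construct gave 20 libraries of chromatin-associated RNA, 2 for each of 10 time points. The authors aligned reads to GRCm38 with STAR in nf-core/rnaseq and used featureCounts to count exonic and intronic reads of each gene, after CASAVA 2.17 per the labels, and deposited the raw counts. The library kit was directional; the annotation release, the strand setting and the treatment of shared reads are not given in the sources used here. Libraries were grouped by their labels and columns matched by name.

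Genes were kept when 2 or more libraries had 10 or more counts, which left 16601 of 56239, and these entered edgeR 4.0.16 (TMM, quasi-likelihood, robust, time point as a factor over all 20 libraries) in R 4.3.3. P-values were adjusted by Benjamini-Hochberg over all genes tested, and a call needed an adjusted p under 0.01 and a fold above 2 unless stated. CPM are counts scaled to the TMM-adjusted library size, and fold changes are given as log2 with their SE. Alternatives were DESeq2 1.42.0, its size factors, library totals alone, no count filter, no fold minimum, a replicate block and each library left out; the counts of calls without a fold minimum, and class and list medians, were added after the data were seen. The fit was tested on simulated counts. Same-numbered libraries did not deviate together: the correlation of their deviations averaged 0.0138 over 45 pairs of time points, from -0.589 to 0.361.

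Gene positions and sequences came from GENCODE and promoters from RefSeq. Genes named in full were the 3 with the highest mean CPM in each class, the 3 largest falls and rises at 2 h and at 24 h among genes of at least 1 CPM, those called at 6 h, the testis or outlying forms, and the partners of head-to-head pairs; Hist1h1b, Hist1h1d, Hist1h4j and Hist1h4n, and the genes of the other lists, were named after their values were seen. The members and all lists were chosen with earlier results of these data known. Reads carry no molecular identifiers, so that depth describes counting error only.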

Additional observations from a re-analysis of the deposited data

How the results depend on the processing

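The direction of the family at 30 min, 6 h, 12 h and 18 h was the same under DESeq2, its size factors, library totals alone, no count filter and the replicate block. Scaling by library totals alone gave 7 members up at 21 h, 2 down at 24 h and 34 down from 12 h to 24 h. Without the count filter 1 was down at 24 h. With no minimum of fold, 7, 3 and 1 were down at 30 min, 1 h and 2 h, 28, 49, 46, 53 and 32 were up at 6, 12, 15, 18 and 21 h, 5 were down and 13 up at 24 h, and 41 were down and 1 up from 12 h to 24 h. Leaving out each library in turn gave 0 to 1 down at 24 h, 16 to 36 up at 12 h and 15 to 42 up at 18 h. The replicate block gave 3, 29, 14, 33, 10 and 6 up at 6, 12, 15, 18, 21 and 24 h and 19 down from 12 h to 24 h, and changed no count by more than 1.5 times; the shared numbers were not shown to pair the libraries.

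Values near 0 changed sign without having passed. At 24 h, library totals alone gave log2 fold changes of -0.20 for Hist1h2ak, -0.21 for Hist1h2bg, -0.056 for Hist1h2bb, -0.18 for Hist1h4d and -0.21 for Hist1h2bp. With 1 library left out, the log2 fold change at 2 h ran from -0.053 to 0.0012 for Hist1h1c, -0.23 to 0.039 for Hist1h2ab, -0.12 to 0.073 for Hist1h3e, -0.21 to 0.081 for Hist1h3g, -0.10 to 0.053 for Hist1h4h, -0.074 to 0.13 for Hist1h4i and -0.66 to 0.013 for Hist2h3c2. At 24 h it ran from -0.071 to 0.19 for Hist1h2ak, -0.15 to 0.12 for Hist1h2ab, -0.0072 to 0.10 for Hist1h2bg, -0.20 to 0.012 for Hist1h3c and -0.18 to 0.023 for Hist1h3f. The cause of these changes was not tested. Members under 1 CPM rest on few counts, and 2 libraries a time point limit every comparison.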
